A study of Homo sapiens with 8 samples.

Results

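Chaperones and chaperonins are described here through 42 genes, taken by symbol from a fixed list and joined by Ensembl gene identifier to the count tables, which hold 63677 gene identifiers. They comprise 2 heat shock factors, 17 genes of the cytosolic HSP70 and HSP90 system, the 8 subunits of the cytosolic chaperonin TRiC, 7 mitochondrial and 8 endoplasmic reticulum genes. RNA sequencing measured their transcripts in a pair of established human leukaemia lines of T-cell origin (T-cell acute lymphoblastic leukaemia), DND-41 and MOLT-4. Cells received 100 nM ACBI-1, or DMSO as the solvent control, and were harvested 24 h later. Each of the 4 groups (DND-41 with ACBI-1, DND-41 with DMSO, MOLT-4 with ACBI-1, MOLT-4 with DMSO) held 2 libraries. ACBI-1 is a small-molecule degrader that recruits the ubiquitin ligase VHL to SMARCA2, SMARCA4 and PBRM1, proteins of the BAF and PBAF chromatin remodelling complexes.

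Chaperones bind unfolded or partly folded proteins and, in cycles driven by ATP, let them reach their native form. In the cytosol, HSP70 proteins take up new or damaged chains with the help of DNAJ proteins, HSP90 matures kinases and receptors, and TRiC folds actin and tubulin inside a closed chamber. Mitochondria and the endoplasmic reticulum hold their own HSP70, HSP90 and folding machines, and the endoplasmic reticulum adds lectin chaperones and disulphide isomerases. Heat shock factors induce the cytosolic genes through heat shock elements, while the unfolded protein response induces the reticulum genes through XBP1 and ATF6. Rapidly growing leukaemia cells generally carry high levels of these proteins.

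Promoter letters differed between the compartments, and 4 sequences are shown because the measured changes are later read beside them. The endoplasmic reticulum stress element (ERSE, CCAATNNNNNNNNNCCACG) was searched on both strands in the 250 bases before each RefSeq start (GRCh38.p14). It lay in 25 of 27305 genes with a window (0.0916%). Of the members, 36 had a window, and 5 of the 7 endoplasmic reticulum genes among them held the element: HSPA5, HSP90B1, CALR, CANX and PDIA6. No member of the other compartments with a window did. In the first 3 sequences, capitals mark the outer letters of the ERSE, which reads CCAAT and CCACG on the strand of the gene and CGTGG and ATTGG where the match is on the opposite strand. In the last, the whole region between the divergent starts of HSPD1 and HSPE1, capitals mark the E-box CACGTG, the site of MYC and related factors.
HSPA5, chr9:125241344-125241593, minus strand: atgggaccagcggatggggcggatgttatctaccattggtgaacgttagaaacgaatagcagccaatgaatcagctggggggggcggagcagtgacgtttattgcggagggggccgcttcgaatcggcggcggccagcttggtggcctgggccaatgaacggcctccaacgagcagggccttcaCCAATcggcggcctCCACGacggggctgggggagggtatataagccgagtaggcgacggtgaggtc
HSP90B1, chr12:103930160-103930409, plus strand: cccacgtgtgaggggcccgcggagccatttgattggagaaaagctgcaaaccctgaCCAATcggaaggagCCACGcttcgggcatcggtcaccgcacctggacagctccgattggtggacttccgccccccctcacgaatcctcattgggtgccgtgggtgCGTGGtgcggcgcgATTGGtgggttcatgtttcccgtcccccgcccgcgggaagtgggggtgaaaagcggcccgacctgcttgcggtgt
CALR, chr19:12938359-12938608, plus strand: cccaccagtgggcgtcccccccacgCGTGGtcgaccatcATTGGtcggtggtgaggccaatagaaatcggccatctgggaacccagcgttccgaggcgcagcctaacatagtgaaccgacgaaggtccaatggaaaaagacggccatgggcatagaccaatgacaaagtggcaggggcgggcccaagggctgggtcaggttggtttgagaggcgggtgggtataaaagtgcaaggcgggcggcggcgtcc
HSPD1 and HSPE1, chr2:197500275-197500378, plus strand: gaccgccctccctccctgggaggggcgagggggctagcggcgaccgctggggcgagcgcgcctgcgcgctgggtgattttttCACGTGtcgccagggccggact
The match in HSPA5 began 66 bases before the start. HSP90B1 had matches beginning 194 and 89 bases before it, the nearer on the opposite strand, and the match of CALR lay 225 bases before it, on the opposite strand. The E-box stood in 7.73% of all genes with a window and in 4 of 5 mitochondrial members: HSPD1, HSPE1, HSPA9 and LONP1. HSPD1 and HSPE1 were counted for the same site, the one marked in their shared region. HSF2 and HSP90B1 held an E-box too. A heat shock element (GAANNTTCNNGAA) stood in 0.557% of genes and in 4 of the 36 members with a window. They were HSPA8, HSP90AA1 and HSP90AB1, 3 of the 16 cytosolic members, and HSPD1, before another of its starts than the one shown. Only this exact pattern was sought, so elements that depart from it were not counted. The plain CCAAT box, which every ERSE also contains, stood in 37.0% of genes, in all 7 endoplasmic reticulum members with a window and in none of the 5 mitochondrial ones. A match describes letters only.

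The libraries of DND-41 did not group by their labelled treatment. Over genes, the chi-square per degree of freedom between DND-41 libraries of the same number was 6.0 and 5.5, against 70.2 to 84.1 for all other pairs, including those of the same treatment. In MOLT-4 it was 2.85 within ACBI-1, 1.56 within DMSO and 55.7 to 57.0 between treatments. The authors' deposited DND-41 table matched libraries numbered 2 over libraries numbered 1 within 0.001 (log2) in 100% of 27069 genes, and matched the labelled treatments in 0.1515%. The deposited MOLT-4 table matched its labelled treatments in 100% of 27777 genes. DND-41 is therefore given both ways, and neither is called right. Total counts per library were between 21308737 and 22067644. T-cell markers at 1 CPM or more (CPM, counts relative to the scaled total of the library) numbered 9 of 9 in MOLT-4 and 8 of 9 in DND-41, where PTCRA reached at most 0.0449 CPM. TAL1 (54.3 to 112.6 CPM) marked MOLT-4 and TLX3 (127 to 258 CPM) DND-41. Of 4 B-cell genes only CD79A was high, at 188 to 767 CPM in DND-41, and myeloid genes stayed under 1 CPM. Summed T-cell markers in MOLT-4 were 2400 to 2407 CPM with DMSO and 2168 to 2278 CPM with ACBI-1, and single markers differed more between the groups. Of the 9, CD7 was 134.7 to 142.4 CPM with DMSO and 20.2 to 24.5 with ACBI-1, CD2 89.1 to 90.4 and 23.4 to 23.9, CD1A 156.3 to 157 and 47.4 to 48.1, and PTCRA 17.6 to 18.9 and 4.91 to 5.54. CD5 and CD3D were also lower in both ACBI-1 libraries, LCK and CD3G higher, and CD3E overlapped. TAL1 was 110.0 to 112.6 CPM with DMSO and 54.3 to 54.9 with ACBI-1. The part of these markers in the results was not tested. COL1A1 stood at 13.8 CPM in MOLT-4 ACBI-1 replicate 2, the highest of its 8 values. The labels do not say whether replicates were separate cultures, so the p-values below reflect the spread of these libraries alone, which may be technical.

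In MOLT-4, chaperone transcripts of the cytosol, TRiC, mitochondria and endoplasmic reticulum were mostly lower with ACBI-1, while those of the heat shock factors were not. Of 41 members tested, 35 fell, 1 rose (CALR) and 5 did not pass (edgeR quasi-likelihood F-test, adjusted p under 0.05). Over all 14618 genes, 30.2% were called lower and 28.2% higher, and the median log2 fold change was 0.01 against -0.39 over the members tested. The endoplasmic reticulum group held the 4 most negative members, HSPA5, HSP90B1, CANX and PDIA6, and also the member that rose. Only HSPA1A was not tested, since its counts were 1 and 4 with DMSO and 2 and 6 with ACBI-1. Both ACBI-1 libraries lay below both DMSO libraries in 36 of the 42 genes, above them in HSF1, HSF2 and CALR, and overlapped them in 3. Of all genes tested, 38.6% lay below in this way and 39.2% above. These are shares of the RNA in a library, and fewer cells of a type cannot be told apart from less RNA per cell. When counts were scaled by library totals rather than by TMM, the median of all genes moved up by 0.119, calls over all genes went from 4120 higher and 4413 lower to 5804 higher and 3031 lower, and 34 members fell and 4 rose. With the spread shared with the DND-41 libraries, only HSP90B1 passed among the members (-1.09, edgeR adjusted p = 0.0428). In that fit 294 of all 16047 genes tested were called lower and 250 higher. Against a 1.5-fold change 10 members passed, all lower, 7 of them endoplasmic reticulum genes beside HSP90AB1, HSPD1 and GRPEL1. Of all 14618 genes, 841 were called lower against that threshold and 896 higher.

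**Figure D1:**
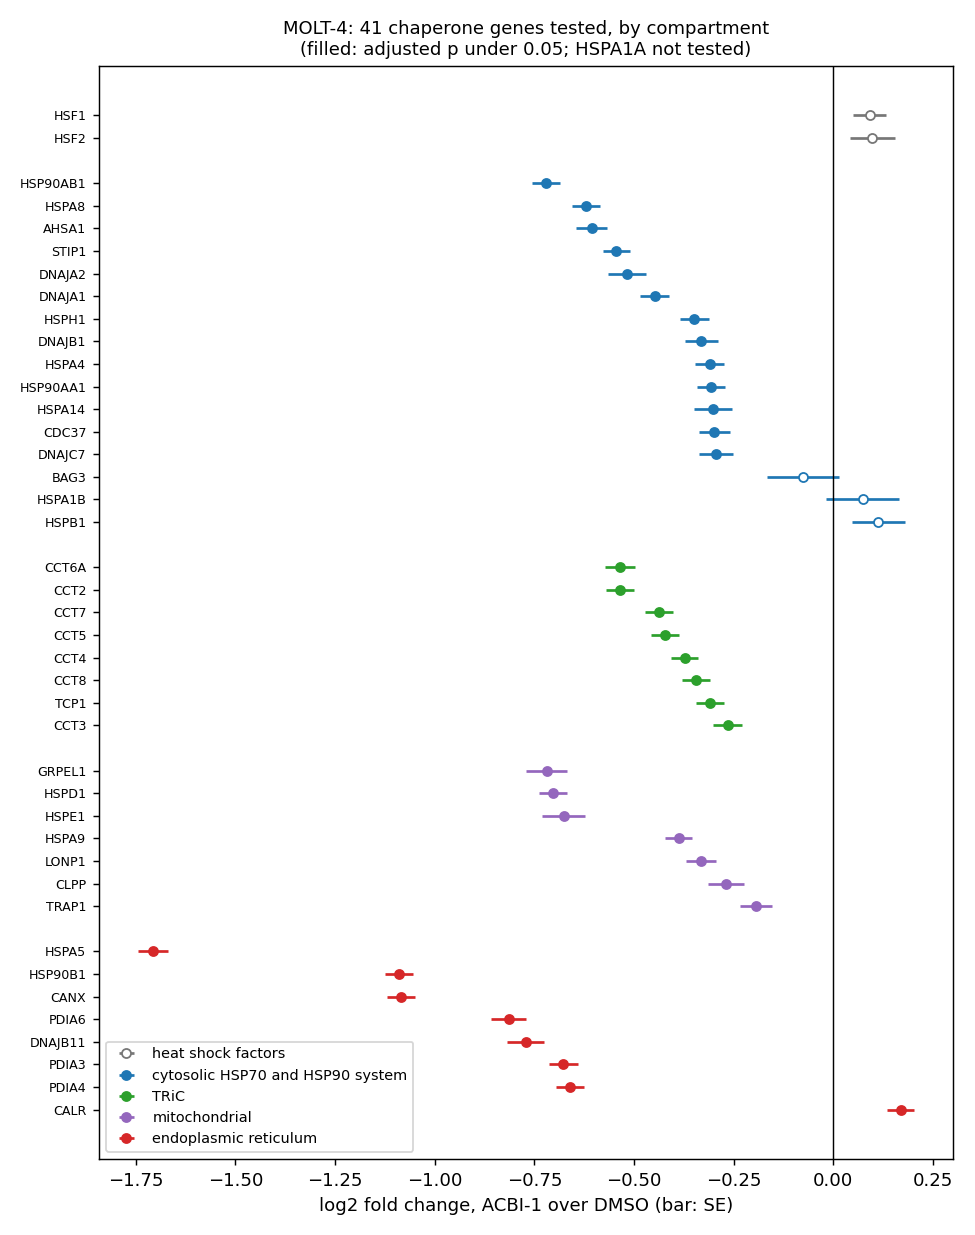
Log2 fold change of ACBI-1 over DMSO in MOLT-4 (x axis) for the 41 chaperone genes tested (y axis), by compartment, with 1 SE as the bar and filled points for edgeR adjusted p under 0.05. HSPA5 lies farthest to the left at -1.71, and CALR is the filled point to the right of 0, at 0.17.

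Of the 8 endoplasmic reticulum genes, 7 fell and CALR rose. HSPA5, which encodes the HSP70 of the reticulum (BiP) and holds its stress sensors inactive, measured 576 and 550 CPM with DMSO (replicates 1 and 2, in this order throughout) and 176 and 169 CPM with ACBI-1. Its levels with ACBI-1 lay far below those with DMSO, and its change was -1.71 on the log2 scale (SE 0.0375, edgeR adjusted p = 1.84e-34). HSP90B1, the HSP90 of the reticulum (GRP94), measured 808 and 796 CPM with DMSO and 377 and 377 CPM with ACBI-1 (log2 fold change -1.09, SE 0.0347, edgeR adjusted p = 1.71e-28). CANX, the membrane-bound lectin chaperone calnexin, measured 963 and 946 CPM with DMSO and 452 and 448 CPM with ACBI-1 (log2 fold change -1.08, SE 0.0347, edgeR adjusted p = 1.98e-28). For all 3 genes the groups stood far apart compared with the difference between replicates. The disulphide isomerases PDIA6 (-0.81), PDIA3 (-0.68) and PDIA4 (-0.66) and the BiP co-chaperone DNAJB11 (-0.77) fell as well, with edgeR adjusted p of at most 1.68e-18. The median of the 8 genes was -0.79, and -0.81 without CALR.

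CALR encodes calreticulin, the soluble counterpart of calnexin, which also buffers calcium. It was the most abundant of the 8 endoplasmic reticulum genes per kb in each of the 4 groups. It measured 1380 and 1373 CPM in the DMSO libraries and 1570 and 1524 CPM in the ACBI-1 libraries of MOLT-4. The groups did not overlap, and the rise was small (log2 fold change 0.17, SE 0.0346, edgeR adjusted p = 5.40e-05). Beside the fall of its partners, the ratio of CALR to HSPA5 counts went from 2.4 and 2.5 with DMSO to 8.92 and 9.03 with ACBI-1. Its ratio to CANX was 1.43 and 1.45 with DMSO and 3.47 and 3.40 with ACBI-1. In the 4 DND-41 libraries, CALR to HSPA5 lay between 2.85 and 3.56. These ratios do not depend on how libraries are scaled. CALR shares the ERSE letters with HSPA5, HSP90B1, CANX and PDIA6, and its change had the opposite sign. Whether the element has a part in any of these changes was not tested.

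**Figure D2:**
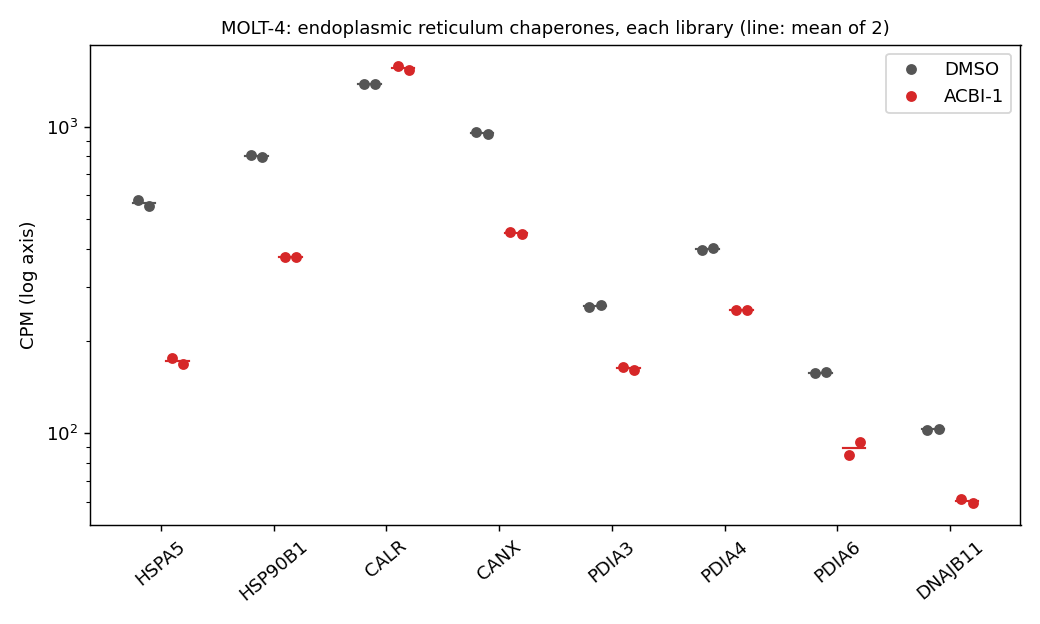
CPM of the 8 endoplasmic reticulum genes in each MOLT-4 library (log y axis), DMSO in grey and ACBI-1 in red, with a line at the mean of 2. The red points lie below the grey in 7 genes and above them in CALR (1570 and 1524 against 1380 and 1373 CPM).

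In the cytosol, 13 of 16 genes tested fell and none rose, with a median of -0.32. HSP90AB1, the constitutive HSP90, measured 2966 and 2924 CPM with DMSO and 1803 and 1770 CPM with ACBI-1 (log2 fold change -0.72, SE 0.0354, edgeR adjusted p = 1.32e-21). HSPA8, the constitutive HSP70, measured 3187 and 3243 CPM with DMSO and 2065 and 2117 CPM with ACBI-1 (-0.62, SE 0.0356, edgeR adjusted p = 3.18e-19). AHSA1, which speeds up the ATPase of HSP90, measured 215 and 209 CPM with DMSO and 136 and 143 CPM with ACBI-1 (-0.61, SE 0.0391, edgeR adjusted p = 1.66e-17). In each, both treated libraries lay below both controls. The stress-inducible HSP90AA1 fell less, by 0.31 on the log2 scale, so the count ratio of HSP90AB1 to HSP90AA1 went from 0.804 and 0.784 to 0.605 and 0.586.

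Most helpers of HSP70 and HSP90 also fell. STIP1, which links HSP70 to HSP90, changed by -0.54, and CDC37, the kinase adaptor of HSP90, by -0.30. The DNAJ proteins hand clients to HSP70: DNAJA2 changed by -0.52, DNAJA1 by -0.45, DNAJB1 by -0.33 and DNAJC7 by -0.29. The exchange factors HSPH1 (-0.35) and HSPA4 (-0.31) and the ribosome-associated HSPA14 (-0.30) had similar values. All 9 passed the test.

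The remaining 3 cytosolic genes tested did not pass. HSPB1, the small heat shock protein HSP27, measured 30.6 and 34.6 CPM with DMSO and 36.8 and 33.7 CPM with ACBI-1, overlapping groups (0.11, SE 0.0665, edgeR adjusted p = 0.147). HSPA1B, an inducible HSP70, measured 13.5 and 14.9 CPM with DMSO and 14.7 and 15.2 CPM with ACBI-1 (0.07, SE 0.0907, edgeR adjusted p = 0.507). The value of BAG3, an HSP70 exchange factor that steers clients to autophagy, was -0.08 (SE 0.0905, edgeR adjusted p = 0.483), and 0.04 when scaled by library totals. These genes were low in MOLT-4, with group means between 14.1 and 35.2 CPM, far below HSPA8 and the HSP90 genes. Scaled by library totals, HSPB1 passed as higher (0.23, edgeR adjusted p = 0.00217). HSPA1A and HSPA1B are near-identical copies, and how reads matching both were counted is not given in the sources used here.

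Neither heat shock factor passed the test, and both had values above 0. HSF1, the main activator of the heat shock response, measured 190.4 and 188 CPM with DMSO and 212 and 191 CPM with ACBI-1, a change of 0.09 on the log2 scale (SE 0.0405, edgeR adjusted p = 0.0514). Without MOLT-4 ACBI-1 replicate 2 it passed as higher (0.16, edgeR adjusted p = 0.00581). HSF2, a related factor active in development, measured 46.8 and 44.6 CPM with DMSO and 48.5 and 49.4 CPM with ACBI-1 (0.10, SE 0.0557, edgeR adjusted p = 0.130). In both genes the treated libraries lay above the controls, by less than the wider of the replicate pairs differed. Scaled by library totals, both passed as higher, at 0.21 for HSF1 (edgeR adjusted p = 3.73e-06) and 0.22 for HSF2 (edgeR adjusted p = 0.000793).

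All 8 subunits of TRiC fell, over a narrow range from -0.54 to -0.27 with a median of -0.40. CCT2 measured 431 and 435 CPM with DMSO and 293 and 305 CPM with ACBI-1 (-0.54, SE 0.0354, edgeR adjusted p = 3.64e-17). CCT6A measured 506 and 518 CPM with DMSO and 339 and 367 CPM with ACBI-1 (-0.54, SE 0.0369, edgeR adjusted p = 1.42e-16). CCT7 measured 792 and 797 CPM with DMSO and 584 and 590 CPM with ACBI-1 (-0.44, SE 0.0342, edgeR adjusted p = 7.88e-15). The groups were separate in these and in the other 5 subunits: CCT5 (-0.42), CCT4 (-0.37), CCT8 (-0.34), TCP1 (-0.31) and CCT3 (-0.27). The complex holds its subunits in equal number, whereas their transcript levels were uneven. Per kb of transcript, CCT7 (433 CPM per kb) was 2.84 times CCT5 (153 CPM per kb) with DMSO and 2.81 times with ACBI-1. This spread was thus almost the same in both groups, but its size and the place of CCT5 depend on the transcript lengths used. They were 3675 bases for CCT5 and 1916 for CCT7. In plain counts of the DMSO libraries CCT8 was the lowest subunit (6398 and 6454), and CCT5 had 11361 and 11271.

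All 7 mitochondrial genes fell, with a median of -0.39, and 3 of them fell more than the rest. GRPEL1, the nucleotide exchange factor of mitochondrial HSP70, measured 74.0 and 76.9 CPM with DMSO and 44.7 and 47.0 CPM with ACBI-1 (-0.72, SE 0.0521, edgeR adjusted p = 7.02e-16). HSPD1, the chaperonin HSP60, measured 899 and 876 CPM with DMSO and 546 and 544 CPM with ACBI-1 (-0.70, SE 0.0345, edgeR adjusted p = 1.33e-21). Its lid HSPE1, transcribed from the other side of the shared region printed above, measured 67.4 and 68.8 CPM with DMSO and 41.5 and 43.8 CPM with ACBI-1 (-0.68, SE 0.0534, edgeR adjusted p = 1.07e-14). Exons of HSPE1 overlap those of HSPD1 on the opposite strand, whose counts in MOLT-4 were 1293% of its own, and with no strand setting known its value may hold HSPD1 reads. HSPA9, the HSP70 that pulls proteins into the matrix, changed by -0.39, and HSPD1 to HSPA9 counts went from 1.83 and 1.80 to 1.48 and 1.44. The proteases LONP1 (-0.33) and CLPP (-0.27), which remove misfolded matrix proteins, and the mitochondrial HSP90 TRAP1 (-0.19) fell less. Scaled by library totals, TRAP1 did not pass (-0.07, edgeR adjusted p = 0.108).

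Side by side, the compartments differed in median: -0.79 in the endoplasmic reticulum against -0.40 in TRiC, -0.39 in mitochondria and -0.32 in the cytosol. The log2 ratios of their summed levels differed less as long as CALR was counted. Summed over members, the cytosolic genes held 12345 ± 10.0 CPM with DMSO and 8745 ± 71.0 CPM with ACBI-1 (mean ± SD, n = 2). TRiC went from 4227 ± 2.87 to 3209 ± 85.8 CPM and the mitochondrial genes from 1974 ± 23.6 to 1384 ± 10.9 CPM. The endoplasmic reticulum genes went from 4616 ± 35.4 to 3111 ± 38.7 CPM. Without CALR, which alone held 1377 and then 1547 CPM on average, they went from 3240 ± 30.0 to 1565 ± 6.13 CPM. The log2 ratios of these sums were -0.50 in the cytosol, -0.40 in TRiC, -0.51 in mitochondria and -0.57 in the reticulum, or -1.05 without CALR. A few genes dominate each sum, and no test was made over members.

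**Figure D3:**
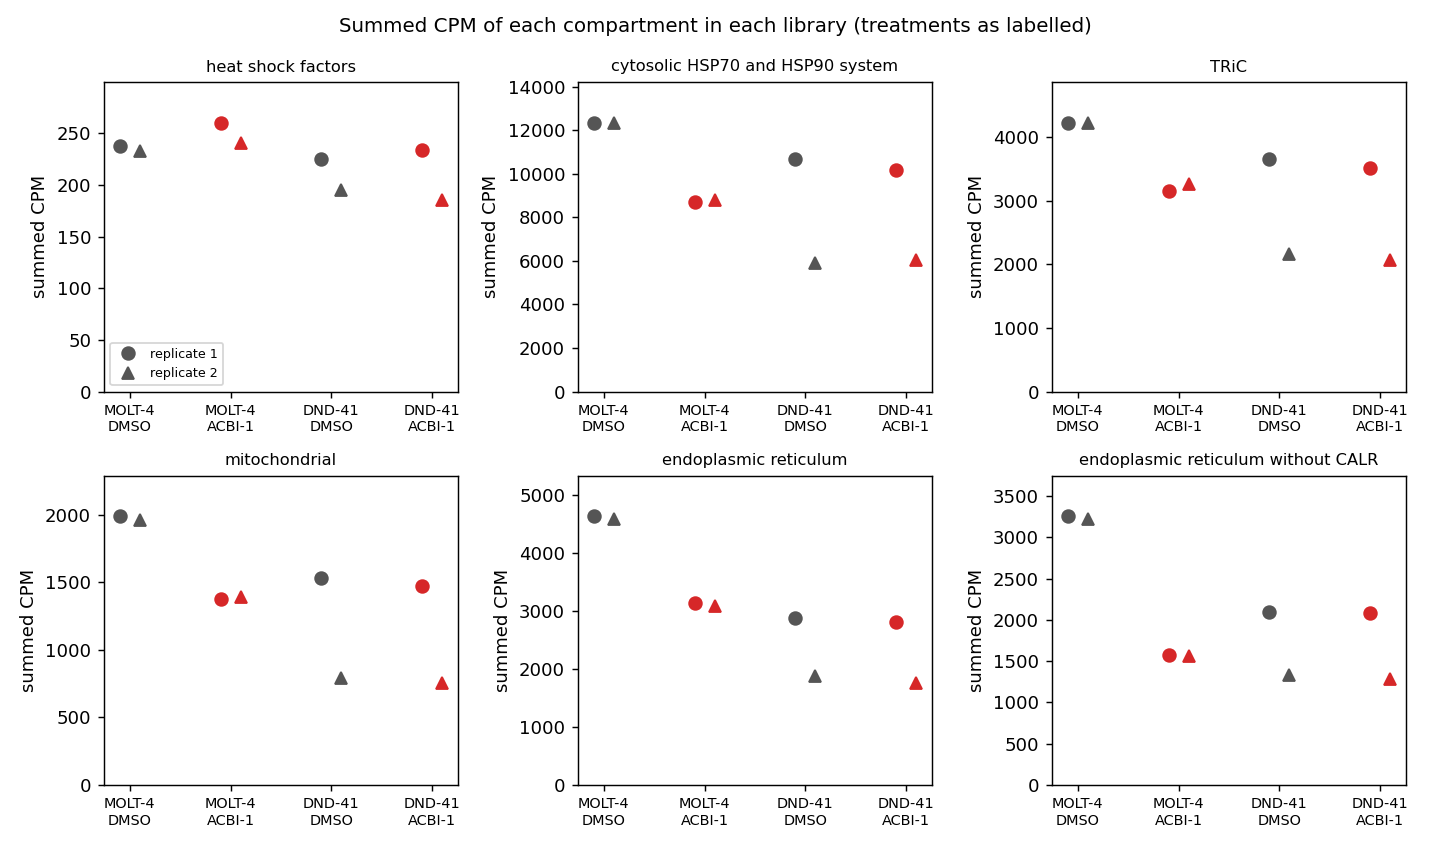
Summed CPM of each compartment in each library (y axes from 0), by line and labelled treatment, with circles for replicate 1 and triangles for replicate 2. MOLT-4 libraries separate by treatment, DND-41 libraries by replicate number (TRiC 3510 and 3660 CPM in replicates 1, 2066 and 2163 CPM in replicates 2). Each line was scaled on its own.

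Other folding genes, outside the 42, were taken in MOLT-4 from 5 lists of related genes. In the endoplasmic reticulum and unfolded protein response list, 23 of 35 fell, 5 rose and the median was -0.27. The genes with the smallest adjusted p were XBP1 (-2.04, SE 0.0538), the transcription factor of the response, the secreted factor MANF (-1.20), the HSP70-like HYOU1 (-0.86) and the prolyl isomerase PPIB (-0.74). XBP1 stood at 120.3 and 113 CPM with DMSO and 29.2 and 27.4 CPM with ACBI-1, a wider gap than that of HSPA5 (edgeR adjusted p = 1.55e-31). The 5 that rose, named after their values were seen, were DNAJC1 (1.06), EDEM1 (0.54), CLGN (0.32), the stress sensor ERN1 (0.28) and DNAJC10 (0.11). Of 25 other mitochondrial genes tested, 17 fell and 4 rose (median -0.26). TOMM40, the import channel of the outer membrane, changed by -0.75, the prohibitins PHB by -0.53 and PHB2 by -0.37. ATF5, a transcription factor linked to the mitochondrial stress response, rose by 0.67, and so did HSCB (0.49), DNAJC30 (0.28) and SPG7 (0.16), these 3 also named after their values were seen.

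In the cytosol, 14 of 21 other HSP90 co-chaperones fell and 1 rose, FKBP8 (0.19, named after its value was seen), with a median of -0.22. FKBP4 changed by -0.60, PPID by -0.48, NUDC by -0.46 and CHORDC1 by -0.44. Of 30 other HSP70 system genes tested, 13 fell and 6 rose (median -0.10, values from -1.32 to 0.90). BAG1 (-1.18) and BAG2 (-0.69), exchange factors or regulators of HSP70, HSPBP1 (-0.51) and DNAJB6 (-0.47), which holds back protein aggregation, had the smallest adjusted p. Among 18 prefoldin, phosducin-like and tubulin-folding genes, which work upstream or downstream of TRiC, 9 fell and 1 rose, TBCC (0.30, named after its value was seen), with a median of -0.16. The tubulin cofactors TBCD (-0.43), TBCB (-0.26) and TBCA (-0.23) and the prefoldin-like URI1 (-0.34) led that list. The share that fell was thus 8 of 8 in TRiC itself and 9 of 18 among its partners, beside 30.2% of all genes.

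**Figure D4:**
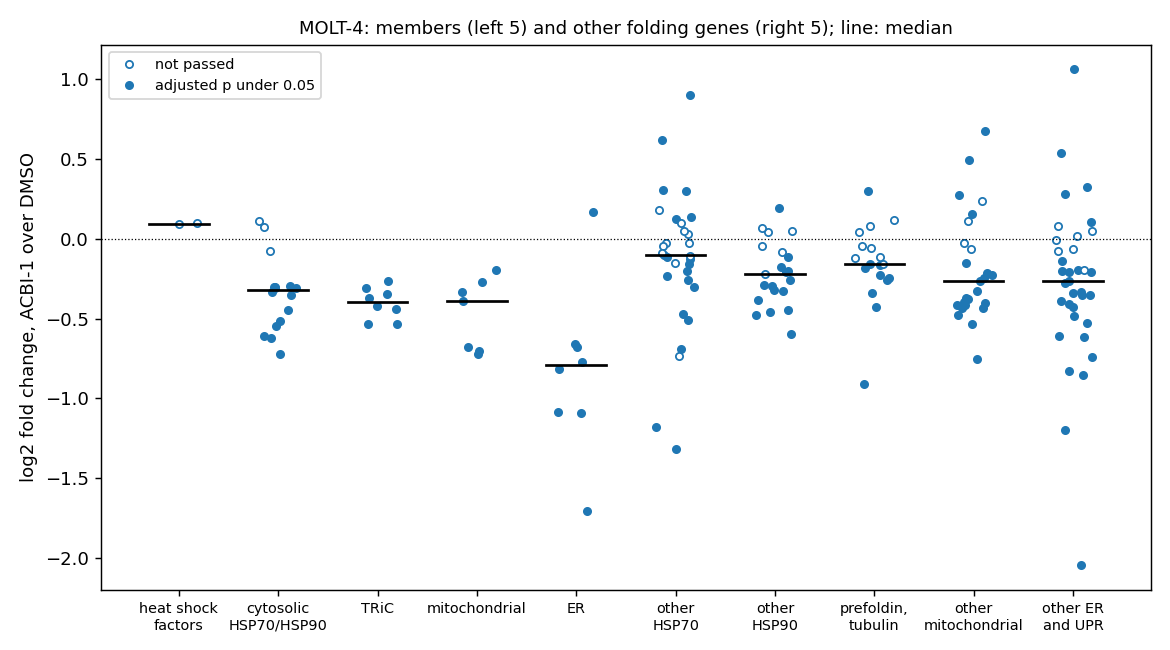
Log2 fold change in MOLT-4 (y axis) of the members by compartment (left 5 columns) and of 5 lists of other folding genes (right 5), each point 1 gene, filled where edgeR adjusted p was under 0.05, with a line at the median. The endoplasmic reticulum members have the lowest median (-0.79), and the lowest single gene, XBP1 (-2.04), is in the last column.

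Genes outside the members also carried the ERSE. Of the 20 such genes, 9 were tested in MOLT-4, and 4 fell and 1 rose, with a median of -0.15. Of all 9277 genes tested that had a window, 34.6% fell, and their median was -0.02. The 4 that fell were XBP1 itself, SERP1 (-0.42), EIF2A (-0.37) and CRELD2 (-0.34), and TMEM120A (0.28) rose. Of the 5 members with the element, 4 fell and CALR rose. SERP1 stabilises membrane proteins during translocation, and CRELD2 is a target of the unfolded protein response. Outside the members, the heat shock element had 39 genes tested, of which 15 fell and 7 rose, and the E-box 1076, of which 414 fell and 307 rose. These counts are descriptions.

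In DND-41 as labelled, none of the 42 chaperone genes passed the edgeR test of ACBI-1 against DMSO. Over all genes, 0% of 14602 passed, with 37 genes at an unadjusted p under 0.05 (DESeq2 called 0, with 7). Compartment medians were between -0.01 and -0.09, and the 2 labelled groups overlapped in all 42 genes, while 16.1% of all genes tested did not overlap. HSPA5 measured 266 and 151 CPM in the libraries labelled DMSO and 258 and 142 CPM in those labelled ACBI-1. Its log2 fold change was -0.06 with an SE of 0.423, against an SE of 0.0375 in MOLT-4. This fit leaves out the replicate number, and its spread could not resolve changes of the size seen in MOLT-4 for most members. With the replicate number as a block, 1349 of all 14602 genes passed, with 1 member higher and 5 lower. HSP90AB1 measured 2052 and 829 CPM with DMSO and 1988 and 835 CPM with ACBI-1. CALR measured 786 and 537 CPM with DMSO and 735 and 470.0 CPM with ACBI-1. In each of these genes the first library of a pair was the higher, whatever its treatment. With 1 library left out, the TRiC median ranged from -0.54 (without DND-41 ACBI-1 replicate 1) to 0.36 (without DND-41 DMSO replicate 1), and no member passed.

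By replicate number, both libraries numbered 2 lay below both numbered 1 in 42 of 42 genes, and in 36.8% of all 14602 genes tested. The authors' deposited DND-41 table, which follows that split, called 39 members lower, 0 higher and 3 not passed (HSF2, HSPA1A, BAG3), beside 21.6% of its genes called lower. The authors' deposited MOLT-4 table called 35 lower and 1 higher, beside 20.3%. The order of compartments differed between the deposited tables. In the authors' deposited DND-41 table the medians were -0.81 in TRiC, -0.80 in mitochondria, -0.64 in the cytosol and -0.55 in the reticulum, where in that of MOLT-4 the reticulum was lowest at -0.81. HSP90AB1 (-1.31), HSPD1 (-1.29) and GRPEL1 (-1.10) were the most negative members in the authors' deposited DND-41 table. CALR (-0.63) and HSPB1 (-0.77) were lower there, against 0.16 and 0.10 in the authors' deposited MOLT-4 table. The HSP90AB1 to HSP90AA1 count ratio was 0.615 and 0.597 in DND-41 libraries numbered 1 and 0.408 and 0.409 in those numbered 2. What the number stands for is not given in the sources used here.

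**Figure D5:**
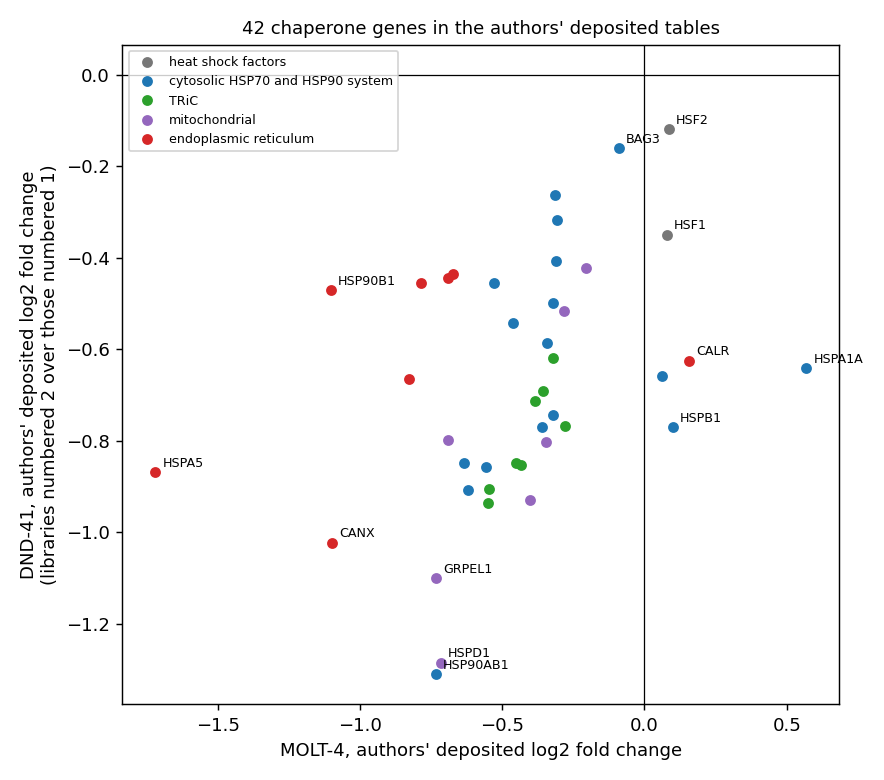
Log2 fold change of the 42 genes in the authors' deposited MOLT-4 table (x axis) and DND-41 table (y axis, libraries numbered 2 over 1), coloured by compartment. All points lie below 0 on the y axis, TRiC genes between -0.94 and -0.62, and HSPA5 is farthest left.

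Lines were also set against each other with labels as given. The edgeR interaction test depended on whether the replicate number was in the fit. With it as a block, 31 members passed as lower and 2 as higher, beside 5860 of 16047 genes. In the planned fit without a block, none of the 42 members passed, beside 0.393% of 16047 genes. That fit recovered 2.99% of simulated 2-fold changes, in libraries drawn without the shared replicate deviations seen in DND-41. HSPA5 (-1.65, SE 0.487, edgeR adjusted p = 0.316) and HSP90B1 (-1.05, SE 0.277, edgeR adjusted p = 0.260) had the smallest unadjusted p among members, 0.0131 and 0.00782. With DESeq2 these 2 passed, at adjusted p = 0.0416 and 0.0407. XBP1, which is no member, passed (-1.96, edgeR adjusted p = 0.0348), and left the calls without any 1 MOLT-4 library (edgeR adjusted p from 0.267 to 0.300) or 3 of the 4 DND-41 libraries. It stood at 677 to 904 CPM in DND-41, scaled within that line, far above its MOLT-4 level.

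Levels in MOLT-4 with DMSO were also set beside those of all DND-41 libraries. Per kb of transcript and scaled over the 8 libraries, both MOLT-4 DMSO libraries were above all 4 DND-41 libraries in 37 of 42 members. The same order was met by 34.8% of all 16047 genes tested, and the opposite order by 33.1%. HSPA1A, HSPB1 and BAG3 were below, and HSPA1B and CDC37 overlapped. HSPA1A had 40 to 72 counts in DND-41 libraries and 1 to 6 in those of MOLT-4. In the MOLT-4 DMSO group HSPA8 was the most abundant cytosolic member at 1364 CPM per kb, HSPD1 the most abundant mitochondrial one at 378 CPM per kb and CALR the most abundant of the reticulum at 756 CPM per kb. The lines were counted in separate tables, so line and table cannot be told apart, and no test was made.

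Counting limits touch some members. The strand setting of the counts is not given in the sources used here, and in GENCODE 29 exons of 9 members overlap those of a gene on the opposite strand whose counts exceed 10% of theirs over the 8 libraries. They are HSF1 (DGAT1), DNAJB1 (TECR), DNAJC7 (CNP), AHSA1 (VIPAS39), TCP1 (ACAT2), HSPE1 (HSPD1), TRAP1 (DNASE1), LONP1 (RPL36) and DNAJB11 (TBCCD1). HSPE1 also shares exons with the read-through gene HSPE1-MOB4 on its own strand. Without these 9, 27 members fell and 1 rose in MOLT-4, a count added after the data were seen. HSF2, HSPA1B, HSPB1 and BAG3 did not pass, and HSPA1A was not tested. Of all genes tested, whether or not they overlap another, 30.2% were called lower and 28.2% higher. Pseudogenes named after a member held at most 1.45% of its counts (PDIA3), and 0.66% for HSPE1, which has 26 of them.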

How the data were processed

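Total RNA of 8 libraries was sequenced as strand-specific paired-end reads, per the labels' protocols. Per the submitters' processing notes, STAR 2.5.2a, featureCounts and DESeq2 1.12.4 were used with build hg19; the featureCounts version, strand setting and annotation are not given in the sources used here. For each line the authors deposited 1 table of raw counts, with Ensembl identifiers. Their deposited DESeq2 tables hold log2 fold changes with standard errors, p-values, Wald scores and a mean signal of scaled counts. MOLT-4 count columns end in "redo", per the file headers, without explanation.

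Lines were fitted separately in R 4.3.3 by the 2-sided quasi-likelihood F-test of edgeR 4.0.16 (TMM, filterByExpr, Benjamini-Hochberg over all genes tested, threshold 0.05), and the lines by the interaction in 1 fit of 8 libraries. CPM are counts over TMM-scaled totals within a line. CPM per kb use 8-library TMM and transcript lengths of GENCODE 29, which held 52526 of 63677 identifiers and all 42 members. The length of a gene is that of its longest top-ranked principal transcript. Of other identifiers sharing 4 members' symbols, 10 held 0 counts. Motifs were sought in RefSeq windows (GRCh38.p14), and no coordinates of the files' build are given. DESeq2 1.42.0, other scalings, no filter, left-out libraries, a replicate block, a 1.5-fold threshold and a shared spread were the alternatives.

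Members and lists were chosen with earlier results of these data known. All members were accounted for; from each other list, up to 4 genes with the smallest MOLT-4 adjusted p were named; library values were given for up to 3 members per compartment with the largest change and for members opposed to their compartment. On simulated data, changes of 1.5-fold, 2-fold and 4-fold were recovered for 73.1%, 91.0% and 97.0% of genes in MOLT-4 (1 false call), 0%, 4.48% and 66.7% in DND-41 (10 false calls) and 0%, 2.99% and 43.9% in the interaction (6 false calls). Total counts per library were 21308737 to 22067644.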

Additional observations from a re-analysis of the deposited data

How the results depend on the processing

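Direction held for every member called in MOLT-4 under all alternatives run, and 35 members stayed lower by DESeq2, DESeq2 size factors, no filter, the replicate block and without any 1 library. Total counts in place of TMM gave 34 lower and 4 higher, and moved the medians to 0.21 (heat shock factors), -0.20 (cytosol), -0.28 (TRiC), -0.27 (mitochondria) and -0.67 (endoplasmic reticulum). Without a filter the medians were -0.42 in TRiC, -0.41 in mitochondria and -0.81 in the endoplasmic reticulum. Leaving out 1 library at a time, members higher ranged from 1 to 2, and the medians from -0.35 to -0.32 in the cytosol, -0.41 to -0.38 in TRiC, -0.41 to -0.37 in mitochondria and -0.82 to -0.77 in the endoplasmic reticulum. Against a 1.5-fold change, 1737 of 14618 genes passed (841 lower, 896 higher), with 10 members lower and 0 higher. With the spread shared with DND-41, 544 of 16047 genes passed (294 lower, 250 higher), with 1 member lower and 0 higher. The DND-41 libraries bring their larger spread to that fit. The replicate numbers are shared only as numbers: libraries of the same number deviated together in DND-41 (correlation 0.915) and not in MOLT-4 (0.00233). With the replicate block, 2 members were higher in MOLT-4 (HSF1 joined CALR), and in DND-41 as labelled 1349 genes passed, with 1 member higher (HSPA1B) and 5 lower (HSPB1, AHSA1, CDC37, HSPE1 and CALR). For the difference between the lines, 63 genes passed, 395 by DESeq2 (2 members lower), 19 against a 1.5-fold change, 0 to 49 without 1 library, and 5860 with the replicate block, with 2 members higher and 31 lower. For the results that moved, the cause was not tested. In DND-41 as labelled, leaving out a library changed the sign of 7 to 33 members, none of them called. With 1 library left in a group, its spread is assumed to equal that of the others. Low counts limit HSPA1A in MOLT-4 (1 to 6), where HSPA1B had 284 to 342 at the same depth. In DND-41, spread rather than depth limits the fits without a replicate block.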
